A study of Mus musculus with 6 samples.

Results

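The genes described here encode the translation initiation factors and their direct regulators, taken as every gene symbol that begins with Eif followed by a digit from 1 to 6. The rule found 55 members among the 18253 gene symbols listed in at least 1 library. It used the symbol and no measured value, but the family was chosen with earlier results of this comparison known, so the calls and counts below describe the family and are no independent evidence about it. Hepatic RNA was sequenced from C57BL/6 mice labelled as postnatal day 21. In 3 libraries the animals had received ANIT (alpha-naphthylisothiocyanate), a bile duct toxicant used in rodents to induce cholestasis, and in 3 they had received ANIT and celastrol, a plant triterpenoid, with 5 days of protection named in the labels. Both groups carry ANIT, and none of the 6 libraries is labelled as untreated, so a difference shows celastrol-treated against ANIT liver and not a departure from normal liver. Whether each library came from a separate animal is not given in the labels, so p-values refer to the spread over these libraries, which may be technical.

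Translation initiation brings a ribosome, the initiator methionyl tRNA and an mRNA together at a start codon. The factor eIF2 carries the initiator tRNA as a complex with GTP, eIF2B reloads eIF2 with GTP, and 4 kinases (encoded by Eif2ak1 to Eif2ak4) phosphorylate eIF2 under stress and thereby hold eIF2B back. The large complex eIF3 holds the small ribosomal subunit, and eIF4F (the cap-binding eIF4E, the scaffold eIF4G and the helicase eIF4A) recruits the mRNA by its cap. The 4E-binding proteins (encoded by the Eif4ebp genes) compete with eIF4G for eIF4E and let go of it once mTORC1 phosphorylates them. Liver makes most plasma proteins, and its translation rate follows feeding and stress through these routes.

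The levels are FPKM as deposited by the authors, a count per length of gene and per size of library, so levels can be compared between genes. Read totals were estimated, approximately, from the spacing of low values at 18940000 to 19840000 per library, so 1 FPKM over 1 kilobase stands for 18.9 to 19.8 reads. From 15900 to 16404 symbols were listed per library. The 10 most abundant genes took 20.3% to 21.9% of the FPKM sum in the ANIT libraries, and 33.2%, 20.7% and 31.5% in celastrol replicates 1, 2 and 3. Celastrol replicate 2 stood apart from the other celastrol libraries in that share, and the family's counts are given with and without it. The tissue matched its label, since albumin (Alb) measured 29351.1, 29531.68 and 38655.85 FPKM in the ANIT group against 5341.18, 10051.4 and 5563.29 under celastrol, and Hnf4a, a hepatocyte transcription factor, lay between 176.74 and 219.11 FPKM in all 6 libraries.

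Initiation factor transcripts were mostly lower in the celastrol group. Of the 55 members 52 had at least 1 FPKM in at least 3 libraries and were tested. The other members, Eif3j2, Eif4e1b and Eif5a2, never exceeded 0.54 FPKM. Among the 52, 18 fell and 2 rose (limma on log2(FPKM + 1), fitted to all 10593 tested genes, Benjamini-Hochberg adjusted p under 0.05), against 20.6% of all tested genes called lower and 4.41% called higher. The median log2 fold change of the members, as celastrol minus ANIT on the log2(FPKM + 1) scale, was -0.32, and the middle of their distribution lay between -0.46 and -0.19 (quartiles). For all tested genes the median was -0.17, with quartiles of -0.38 and 0.03. These genes were not matched to the members for level, and log2(FPKM + 1) understates changes of low genes. Among genes with a mean of at least 5 FPKM, 20 of 49 members (40.8%) were called lower, against 28.9% of all such genes. At that filter 1 member was called higher, against 5.01%. The sum of FPKM over the 55 members was 2430, 2277 and 2308 with ANIT and 1776, 2065 and 1853 with celastrol, without overlap, so the celastrol mean was 81.2% of the ANIT mean. In bulk liver, fewer cells of a type and less RNA per cell cannot be told apart.

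**Figure D1:**
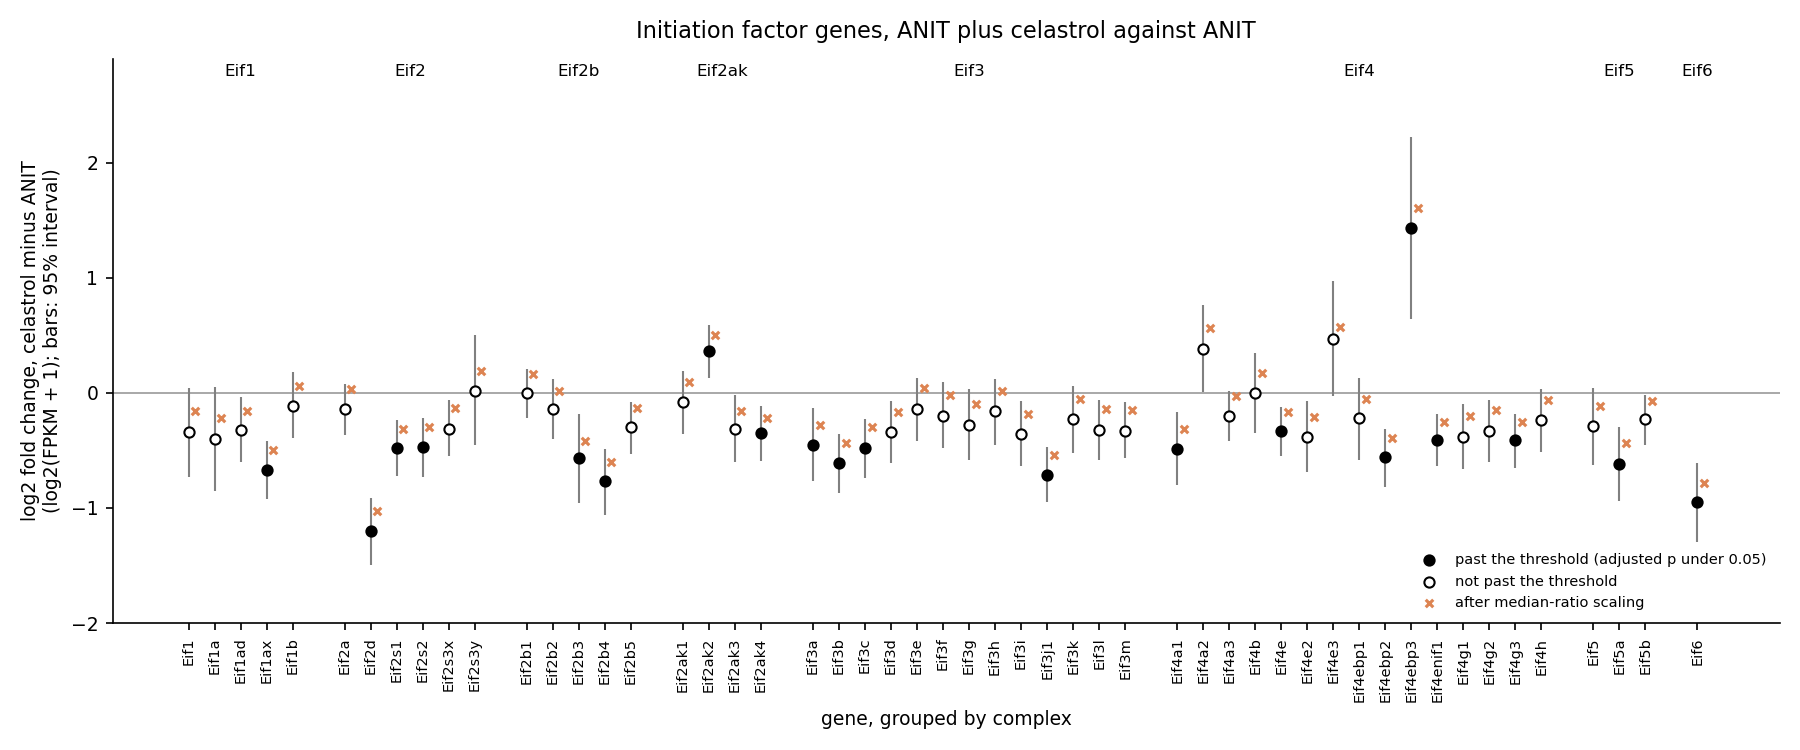
Log2 fold change of each of the 52 tested initiation factor genes, celastrol minus ANIT on the log2(FPKM + 1) scale, grouped by complex, with 95% intervals as bars. Filled points passed an adjusted p of 0.05, open points did not, and crosses are the values after median-ratio scaling. As deposited 47 of the 52 points lie below 0, as do 72.1% of all tested genes, and Eif4ebp3 stands highest at 1.43.

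How large the family's difference is depends on how the libraries are scaled. Median-ratio scaling, which sets the typical gene equal between libraries, moved the median of all tested genes from -0.17 to -0.02 and that of the members from -0.32 to -0.15. After it 10 members were lower and 3 higher, against 11.0% and 7.49% of all tested genes. Quantile normalization brought the members' median to -0.05 and that of all tested genes to 0.01, with 5 lower and 3 higher against 8.99% and 8.24%. Rescaling to TPM, with each library summing to 1000000, moved the medians to -0.45 and -0.30, with 33 lower and 1 higher against 36.0% and 3.67%. The member median was below 0 under each of these 4 scalings. The members' median lay below that of all tested genes under each of them, and the medians were closest after quantile normalization.

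Within a library the typical initiation factor gene, relative to the mean of the ANIT libraries, stood at 0.04, -0.01 and -0.04 (median log2) with ANIT. It stood at -0.36, -0.20 and -0.34 in celastrol replicates 1, 2 and 3, where all tested genes had medians of -0.21, -0.07 and -0.24. The groups of members did not overlap, and celastrol replicate 2 lay nearest to the ANIT libraries for both. After median-ratio scaling the members' medians were -0.16, -0.16 and -0.08 in the celastrol libraries. Without celastrol replicate 2, 31 members were lower and 2 higher as deposited, against 31.4% and 4.86% of all tested genes, which moved the count of falls by over 1.5 times. The 14 members that passed without this library and not with it, all lower, were Eif1, Eif1ad, Eif2b5, Eif2s3x, Eif3d, Eif3g, Eif3i, Eif3l, Eif3m, Eif4e2, Eif4g1, Eif4g2, Eif4h and Eif5 (limma adjusted p from 0.014 to 0.045). Without celastrol replicate 1 or ANIT replicate 2, 6 members were lower and none higher, against 8.58% and 2.06% or 9.53% and 2.45%, and without ANIT replicate 1, 7 were lower and 1 higher, against 12.1% and 2.80%. Without ANIT replicate 3 or celastrol replicate 3, 12 were lower and none higher, against 14.4% and 2.99% or 12.3% and 3.68%.

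**Figure D2:**
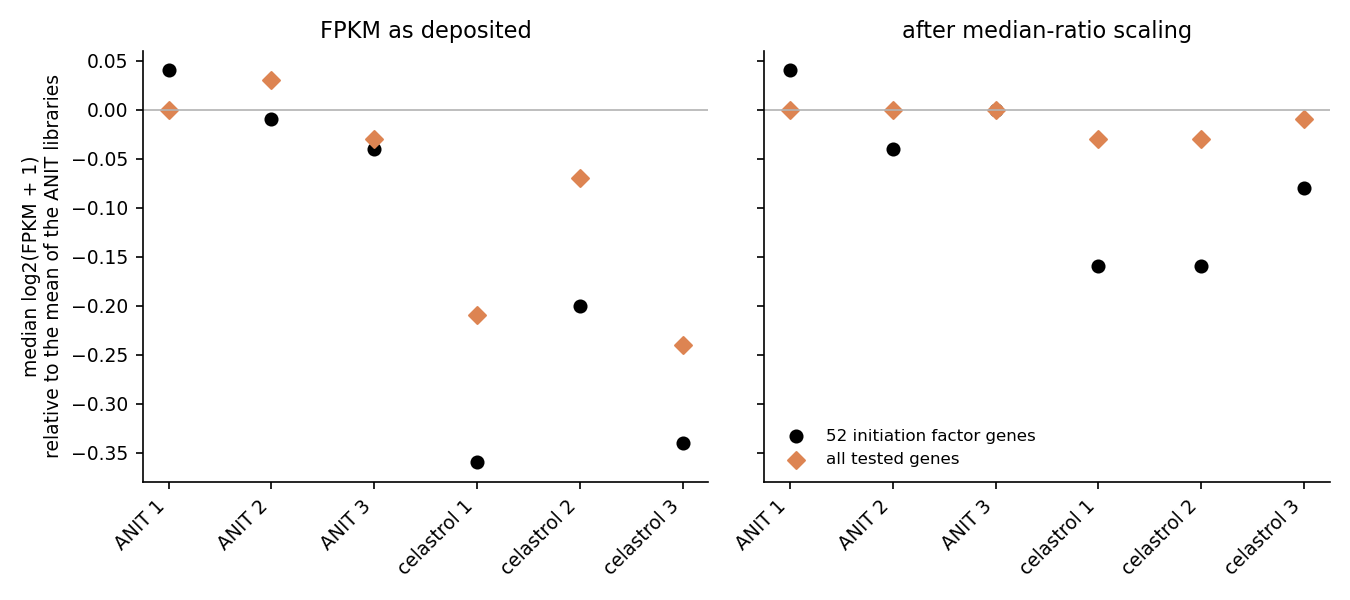
Median log2(FPKM + 1) of the 52 initiation factor genes (black circles) and of all tested genes (orange diamonds) in each library, relative to the mean of the ANIT libraries, as deposited (left) and after median-ratio scaling (right). As deposited the members lie at -0.36, -0.20 and -0.34 in the celastrol libraries, below the medians of all tested genes in the same libraries.

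Counting only whether the groups overlap, 34 of the 52 members had every celastrol library below every ANIT library and 3 had every celastrol library above, where 36.6% and 8.35% of all tested genes did. After median-ratio scaling the numbers were 20 and 5, where 22.9% and 17.4% did. Of the 20 calls, 6 held without any 1 library: Eif1ax, Eif2b4, Eif2d, Eif3b, Eif3j1 and Eif6, all lower. Of these, 4 (Eif2b4, Eif2d, Eif3j1 and Eif6) also held under every other alternative that was planned. The other 14 calls each depended on at least 1 library, and their adjusted p without it is given with each gene below. Quantile normalization kept 7 of the 20 calls: Eif2ak2, Eif2b4, Eif2d, Eif3j1, Eif4ebp3, Eif5a and Eif6. The calls of Eif1ax, Eif2s2, Eif3b, Eif3c and Eif4ebp2, kept after median-ratio scaling, were lost under it.

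Sequence windows are shown for members on which the results turn, to let the start regions be compared. RefSeq windows (GRCm38.p6) of 250 bases before and 50 after a start were matched for 43 of the 55 members, 17 of them called. The helicase paralogs Eif4a1 and Eif4a2 lay on opposite sides of 0, and their upstream sequences are printed 5′ to 3′ in the direction of the gene, with matches to any searched motif in capitals. The Eif4a1 window is chr11:69672424-69672673 on the minus strand and that of Eif4a2 is chr16:23107218-23107443 on the plus strand.
Eif4a1: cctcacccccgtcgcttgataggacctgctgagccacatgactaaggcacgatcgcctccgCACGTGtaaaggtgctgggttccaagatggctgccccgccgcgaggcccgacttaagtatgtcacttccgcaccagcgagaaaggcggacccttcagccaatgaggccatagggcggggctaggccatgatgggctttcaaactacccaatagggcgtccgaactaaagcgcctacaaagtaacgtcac
Eif4a2: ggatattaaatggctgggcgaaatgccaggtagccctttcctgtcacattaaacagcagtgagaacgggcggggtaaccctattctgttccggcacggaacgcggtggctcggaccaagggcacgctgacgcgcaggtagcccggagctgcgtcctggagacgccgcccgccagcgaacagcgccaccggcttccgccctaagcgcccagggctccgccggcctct
The Eif4a1 window holds an E-box (CACGTG, the letters bound by Myc-type factors) that begins at position -189 from the start, and the Eif4a2 window holds none of the motifs searched.

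Motifs were searched on both strands in every window of a gene. The E-box occurred in 10 of the 43 members (23.3%), against 12.2% of tested genes with a window and 8.09% of all genes with one. CCGGAAG, the core of ETS factor sites, occurred in 16 (37.2%), against 21.2% and 9.93%. TGATGNAA, part of an element bound by ATF4, occurred in Eif2s3x alone, against 2.61% and 4.51%. TGACNNNGC, the antioxidant response element read by Nrf2, occurred in 8 (18.6%), against 17.3% and 14.0%. It was present in 5 of the 17 called members and 2 of the 25 members tested and not called, and these letters are a description, not evidence of a site. They are shown in capitals for the called members among them, a choice made from the calls in these same data. The share of all called genes with these letters was not computed, so the split by call has no background beside it. The share of all 43 members lay near that of tested genes. No window was matched for Eif6.
Eif2d, chr1:131153180-131153204, plus strand: cacctggcGCTGCGTCAgttccggg
Eif2b4, chr5:31193097-31193121, minus strand: ctggggacTGACTCCGCgggaggca
Eif3j1, chr2:122028542-122028566, plus strand: tgccgggcGCCCAGTCAgccactgt
Eif3a, chr19:60790775-60790799, minus strand: cacccagcGCCACGTCAgcccgcgc
Eif5a, chr11:69921451-69921475, minus strand: ggaaagggGCGGGGTCAcgtgtgtg
The same letters also occur in Eif1, Eif2s3y and Eif5a2.

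The interferon-stimulated response element (GAAA, any 2 bases, GAAA) was added to the search after the values were seen, because Eif2ak2 encodes an interferon-induced kinase. It occurred in 4 of the 43 members (9.30%), against 3.72% of tested genes and 3.99% of all genes. Besides Eif2ak2, which was called higher, these are Eif2s1 and Eif3a, both called lower, and Eif2s3x, which was not called. The match in Eif2ak2 (chr17:78882537-78882562, minus strand) begins 19 bases into the transcript.
Eif2ak2: tccgccggGAAAACGAAAcagaagag
A terminal oligopyrimidine start, meaning a C at the first base followed by at least 4 pyrimidines, marks mRNAs whose translation follows mTORC1. It was found at the RefSeq start of 2 of the 43 members (4.65%), against 3.16% of tested genes and 3.01% of all genes, and neither was called. The pyrimidine run is in capitals (chr7:108934405-108934429, plus strand, for Eif3f and chrX:94212637-94212661, minus strand, for Eif2s3x).
Eif3f: tctaggctctCTCTCTTTCTCggca
Eif2s3x: gagcattttcCTTTTCTCTCCgagc
Both runs are 11 bases long, and the interferon element match in Eif2s3x overlaps its run. Eif3f measured 51.54, 53.53 and 51.43 FPKM in the ANIT group against 44.71, 50.88 and 41.12 under celastrol and missed the threshold (adjusted p by limma = 0.26).

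The start-codon selection factors of the Eif1 group had 1 of 5 members lower and none higher. That count and those of the groups below are read beside the 20.6% of all tested genes called lower and the 4.41% called higher. Eif1ax (chromosome X, positions 159372178 to 159389928 in mm10), the X-linked gene of eIF1A, which helps the small subunit scan for the start codon, measured 27.48, 26.63 and 30.38 FPKM with ANIT. It measured 15.87, 17.81 and 18.20 FPKM with celastrol, all below the ANIT libraries, with a log2 fold change of -0.67 (SE 0.11; adjusted p by limma = 0.0057). The second gene of the same factor, Eif1a, measured 41.34, 40.93 and 44.86 FPKM in the ANIT group against 31.53, 24.17 and 42.39 under celastrol, overlapping, and did not pass (adjusted p = 0.16 by limma). The coding sequences of Eif1a and Eif1ax are 85.6% identical over 432 aligned bases, so some reads could be counted for either. Eif1, which guards start-codon fidelity and was second in level to Eif5a among members, measured 204.69, 199.08 and 216.22 FPKM with ANIT. With celastrol it measured 153.63, 201.70 and 138.70 FPKM, with replicate 2 inside the ANIT range. It missed the threshold (adjusted p by limma = 0.16) but passed without celastrol replicate 2 (adjusted p = 0.014). Eif1ad and Eif1b had log2 fold changes of -0.32 and -0.11 and did not pass, and the value for Eif1b was 0.06 after median-ratio scaling.

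The Eif2 group, which delivers the initiator tRNA, had 3 of 6 members lower and none higher. Eif2d (chromosome 1, positions 131153181 to 131187658), which can deliver tRNA without GTP and takes part in ribosome recycling, had the lowest log2 fold change of the family. It measured 29.04, 27.48 and 31.27 FPKM in the ANIT group against 11.42, 14.33 and 10.92 under celastrol, well apart, so the celastrol mean was 41.8% of the ANIT mean. Its log2 fold change was -1.20 (SE 0.13; adjusted p by limma = 0.0013), and -1.03 after median-ratio scaling (adjusted p = 0.0015). The alpha and beta subunits of eIF2 itself fell by less. Eif2s1, whose protein carries the serine that the stress kinases phosphorylate, measured 14.29, 13.09 and 13.03 FPKM in the ANIT group against 9.51, 8.41 and 10.26 under celastrol, without overlap. Its log2 fold change was -0.48 (SE 0.10; adjusted p by limma = 0.015), and the call was lost after median-ratio scaling (adjusted p = 0.14) and on dropping ANIT library 1 or 2 or celastrol library 1 (adjusted p from 0.053 to 0.058). Eif2s2, the beta subunit, measured 34.38, 33.26 and 33.35 FPKM in the ANIT group against 22.12, 26.66 and 23.30 under celastrol, again without overlap. The log2 fold change was -0.47 (SE 0.11; adjusted p by limma = 0.020), and the call was lost on dropping any ANIT library, or celastrol library 1 or 3 (adjusted p from 0.057 to 0.089).

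The gamma subunit of eIF2 has an X-linked gene, Eif2s3x, and a Y-linked gene, Eif2s3y. Eif2s3x measured 29.08, 27.61 and 26.42 FPKM in the ANIT group against 21.08, 24.08 and 21.46 under celastrol. The groups did not overlap, but the gene did not pass (log2 difference -0.31, SE 0.11; adjusted p by limma = 0.067). Eif2s3y measured 21.81, 12.01 and 18.68 FPKM in the ANIT group against 17.66, 18.57 and 15.73 under celastrol, with ANIT replicate 2 the lowest of the 6 (log2 difference 0.02, SE 0.20; adjusted p by limma = 0.95). Both genes are transcribed in every library, and Xist, the RNA of the inactive X chromosome, was at most 0.02 FPKM. The Y-linked Ddx3y (9.3 to 14.72 FPKM), Kdm5d (2.03 to 2.71) and Uty (1.97 to 2.98) were also present in all 6 libraries. The labels do not give the sex, and by these genes all 6 libraries read as male. The coding sequences of Eif2s3x and Eif2s3y are 86.3% identical. The ratio of Eif2s3x to Eif2s3y was 1.33, 2.30 and 1.41 with ANIT and 1.19, 1.30 and 1.36 with celastrol, overlapping. Eif2a, an alternative tRNA carrier, stood at -0.14 on the log2 scale and was not called, and the value was 0.03 after median-ratio scaling.

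Among the 5 subunits of eIF2B, the exchange factor that reactivates eIF2, 2 were lower and none higher. Eif2b4 (chromosome 5, positions 31187558 to 31193430), the delta subunit, measured 29.80, 24.51 and 23.80 FPKM in the ANIT group against 14.63, 16.05 and 13.73 under celastrol. The groups were far apart, with a log2 fold change of -0.77 (SE 0.12; adjusted p by limma = 0.0055). Eif2b3, the gamma subunit, measured 9.39, 6.72 and 5.73 FPKM in the ANIT group against 4.02, 4.37 and 5.10 under celastrol, with the groups close together. Its log2 fold change was -0.57 (SE 0.17; adjusted p by limma = 0.042). The call was lost after median-ratio scaling (adjusted p = 0.15) and without ANIT replicate 1 or 2 or any 1 celastrol library (adjusted p from 0.058 to 0.14). Eif2b5, the catalytic subunit, measured 16.93, 15.28 and 16.43 FPKM in the ANIT group against 12.35, 13.83 and 12.67 under celastrol, without overlap, and did not pass (log2 difference -0.30, SE 0.10; adjusted p by limma = 0.056). Eif2b1, the alpha subunit, was at 10.01, 9.67 and 9.51 FPKM in the ANIT group against 10.20, 10.10 and 8.87 under celastrol (95% interval of the log2 fold change from -0.22 to 0.21). The ratio of Eif2b4 to Eif2b1, which multiplying a library by 1 factor cannot change, was 2.98, 2.53 and 2.50 with ANIT and 1.43, 1.59 and 1.55 with celastrol. The 2 subunits of the same complex therefore stood in different proportion in the 2 groups. This and the other ratios below were chosen after the values were seen and are given without a test.

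Of the 4 eIF2 kinases 1 was called higher and 1 lower, against 4.41% and 20.6% of all tested genes. Eif2ak2, which encodes PKR, the kinase activated by double-stranded RNA, measured 3.29, 3.38 and 2.85 FPKM in the ANIT group against 4.66, 4.31 and 4.10 under celastrol. All celastrol libraries lay above, with a log2 fold change of 0.36 (SE 0.10; adjusted p by limma = 0.034), and 0.50 after median-ratio scaling (adjusted p = 0.014). The call was lost when rescaled to TPM and without the filter (adjusted p of 0.075 and 0.058), and on dropping any ANIT library, or celastrol library 1 or 3 (adjusted p from 0.065 to 0.13). Eif2ak4, which encodes GCN2, the sensor of amino acid shortage, measured 2.46, 2.89 and 2.51 FPKM in the ANIT group against 1.63, 1.96 and 1.93 under celastrol, without overlap. Its log2 fold change was -0.35 (SE 0.10; adjusted p by limma = 0.045). That call was lost after median-ratio scaling (adjusted p = 0.15), without any 1 ANIT library and without celastrol replicate 1 or 3 (adjusted p from 0.081 to 0.16). Eif2ak3, which encodes PERK, the kinase of the endoplasmic reticulum, measured 6.24, 6.07 and 5.89 FPKM in the ANIT group against 5.03, 3.77 and 5.41 under celastrol and did not pass (log2 fold change -0.31, limma adjusted p = 0.11). Eif2ak1, the heme-regulated kinase, had the highest level of the 4, at 13.27, 15.57 and 13.59 FPKM in the ANIT group against 11.70, 14.95 and 13.31 under celastrol (limma adjusted p = 0.63).

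**Figure D3:**
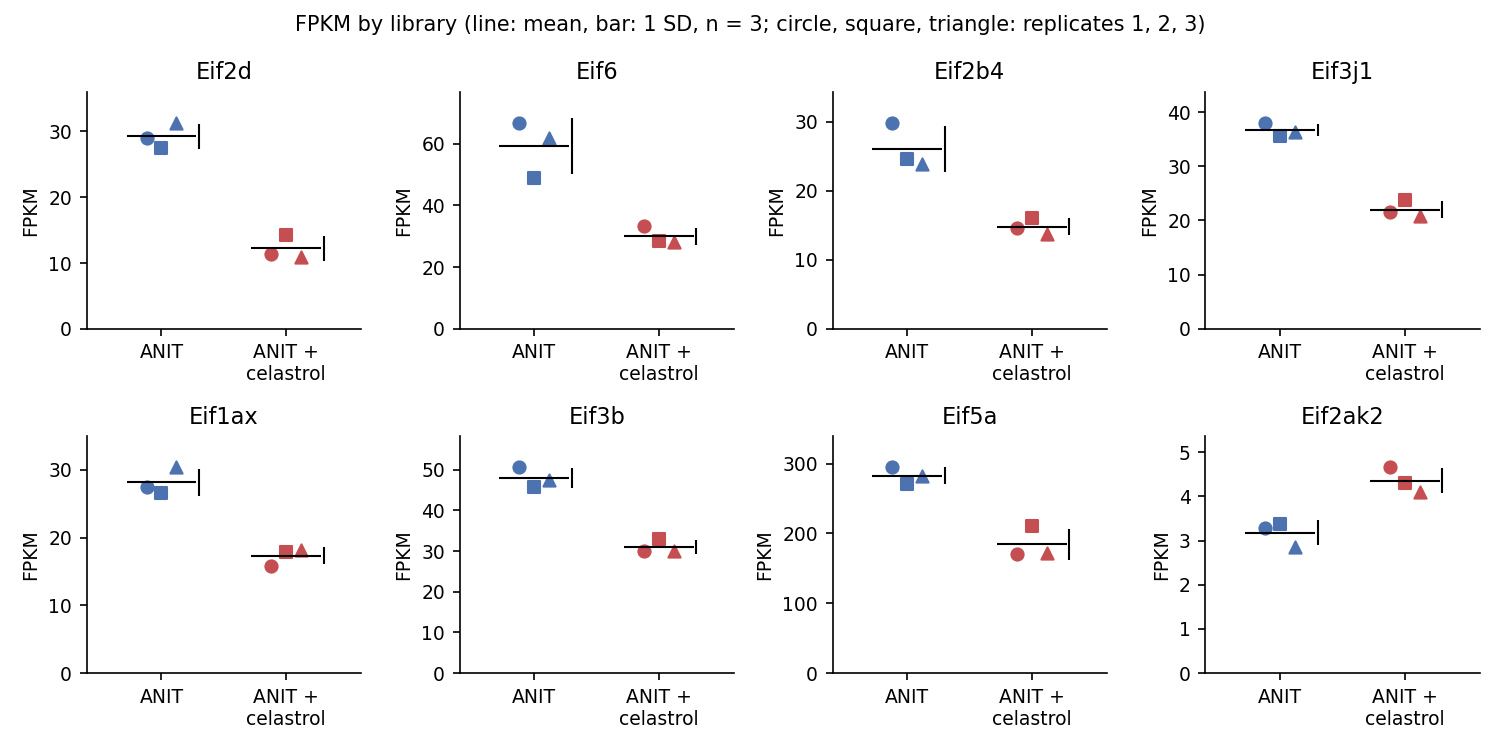
FPKM of 8 initiation factor genes in each of the 6 libraries (linear axes from 0), with the group mean as a line and 1 SD as a bar (n = 3 each). In 7 panels every celastrol library lies below every ANIT library, and for Eif2ak2 every celastrol library lies above, at 4.10 to 4.66 against 2.85 to 3.38 FPKM.

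Of the 13 tested subunits of eIF3, the platform on the small ribosomal subunit, 4 were lower and none higher. The largest difference was that of Eif3j1 (chromosome 2, positions 122028546 to 122056598), a loosely bound subunit near the mRNA entry channel. It measured 38.00, 35.67 and 36.39 FPKM in the ANIT group against 21.50, 23.72 and 20.84 under celastrol, well separated, with a log2 fold change of -0.71 (SE 0.10; adjusted p by limma = 0.0041). Its near copy Eif3j2, with a coding sequence 100% identical over 783 aligned bases, was listed in ANIT replicates 1 and 2 alone, at 0.54 and 0.22 FPKM. Reads of the copies cannot be told apart over that stretch. Eif3b, a core subunit, measured 50.62, 45.85 and 47.56 FPKM in the ANIT group against 29.93, 33.01 and 30.08 under celastrol, without overlap (log2 difference -0.61, SE 0.11; adjusted p by limma = 0.0078).

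The other core subunits of eIF3 that were called are Eif3a and Eif3c. Eif3a measured 41.64, 44.68 and 35.02 FPKM in the ANIT group against 26.17, 32.49 and 29.07 under celastrol, with a log2 fold change of -0.45 (SE 0.14; adjusted p by limma = 0.048). Its groups were separated by less than the spread within ANIT. The call was lost after median-ratio scaling (adjusted p = 0.12) and on dropping ANIT library 1 or 2 or celastrol library 1 or 3 (adjusted p from 0.10 to 0.17). Eif3c measured 49.03, 50.02 and 47.56 FPKM in the ANIT group against 32.35, 37.28 and 34.73 under celastrol (log2 difference -0.48, SE 0.11; adjusted p by limma = 0.018). That call was lost on dropping any ANIT library, or celastrol library 1 (adjusted p from 0.050 to 0.085). The 9 other tested subunits had log2 fold changes from -0.36 (Eif3i) to -0.14 (Eif3e) and did not pass, and the values for Eif3e and Eif3h were 0.04 and 0.02 after median-ratio scaling. Eif3h, the most abundant subunit, measured 82.20, 84.77 and 79.07 FPKM in the ANIT group against 68.16, 80.70 and 71.04 under celastrol, overlapping. The ratio of Eif3j1 to Eif3h was 0.462, 0.421 and 0.460 with ANIT and 0.315, 0.294 and 0.293 with celastrol, so the subunits did not shift by 1 common factor.

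In the Eif4 group, which brings the capped mRNA to the ribosome, 5 of 15 tested members were lower and 1 higher. Eif4e, the cap-binding protein, measured 12.88, 11.90 and 11.22 FPKM in the ANIT group against 9.51, 8.88 and 9.50 under celastrol, without overlap (log2 difference -0.33, SE 0.09; adjusted p by limma = 0.037). After median-ratio scaling the groups overlapped and the call was lost (adjusted p = 0.30), as it was on dropping any ANIT library, or celastrol library 1 or 3 (adjusted p from 0.057 to 0.12). Eif4g1, the main scaffold, measured 94.61, 89.27 and 79.82 FPKM in the ANIT group against 66.06, 69.02 and 66.42 under celastrol, apart but not past the threshold (log2 difference -0.38, SE 0.12; adjusted p by limma = 0.054). Its paralog Eif4g3 measured 13.59, 14.24 and 12.04 FPKM in the ANIT group against 9.51, 9.33 and 10.27 under celastrol (log2 difference -0.41, SE 0.10; adjusted p by limma = 0.023). For Eif4g3 the call was lost after median-ratio scaling (adjusted p = 0.15) and on dropping ANIT library 1 or 2 or celastrol library 1 (adjusted p from 0.071 to 0.094). Eif4enif1, the nuclear import partner of eIF4E, measured 9.35, 9.47 and 8.29 FPKM in the ANIT group against 6.28, 7.16 and 6.26 under celastrol (log2 difference -0.41, SE 0.10; adjusted p by limma = 0.023). Its groups did not overlap, and the call was lost after median-ratio scaling (adjusted p = 0.062) and on dropping ANIT library 1 or 2 or celastrol library 1 or 3 (adjusted p from 0.071 to 0.090).

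The eIF4A helicases, which unwind the mRNA leader, are encoded by the paralogs Eif4a1 and Eif4a2, and they shifted in proportion. Eif4a1 (chromosome 11, positions 69666936 to 69672423) measured 182.81, 146.92 and 155.00 FPKM in the ANIT group against 108.25, 121.68 and 114.11 under celastrol, without overlap. Its log2 fold change was -0.49 (SE 0.14; adjusted p by limma = 0.037), and the call was lost after median-ratio scaling (adjusted p = 0.12) and on dropping any ANIT library, or celastrol library 1 or 3 (adjusted p from 0.080 to 0.14). Eif4a2 (chromosome 16, positions 23107444 to 23114136) measured 57.35, 64.43 and 56.16 FPKM in the ANIT group against 65.25, 94.54 and 75.67 under celastrol, with replicate 1 just above the highest ANIT library and the others further above. It did not pass as deposited (log2 difference 0.38, SE 0.16; adjusted p by limma = 0.11) and passed after median-ratio scaling (0.56, adjusted p = 0.020). The ratio of Eif4a2 to Eif4a1 within a library, which needs no scaling, was 0.314, 0.439 and 0.362 with ANIT and 0.603, 0.777 and 0.663 with celastrol. Eif4a2 thus made up 27.0 ± 3.32% of the summed FPKM of the pair with ANIT and 40.4 ± 3.09% with celastrol (SD, n = 3 each), without overlap. The coding sequences are 78.2% identical with a longest shared run of 20 bases. Small nucleolar RNA and other small or unnamed genes share 11.6% of the Eif4a2 exon bases on the same strand. Eif4a3, the exon junction helicase, measured 22.79 ± 0.945 and 19.68 ± 0.497 FPKM (SD, n = 3 each) and missed the threshold (adjusted p by limma = 0.15).

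The 4E-binding protein genes moved apart from each other. Eif4ebp3 had the highest log2 fold change of the family, at 1.43 (SE 0.33; adjusted p by limma = 0.023). It measured 71.33, 28.44 and 41.10 FPKM in the ANIT group against 96.64, 117.49 and 150.13 under celastrol, so the groups did not overlap, although ANIT replicate 1 lay nearer to the celastrol libraries than the others did. The celastrol mean was 258.6% of the ANIT mean. The call was lost on dropping ANIT library 2 or 3 or celastrol library 1 or 3 (adjusted p from 0.052 to 0.077). Of its exon bases 67.3% are shared on the same strand with the gene model AC115631.1. The neighbouring Ankhd1, which lies just upstream, measured 5.28, 5.26 and 3.77 FPKM in the ANIT group against 3.66, 4.47 and 3.64 under celastrol (limma adjusted p = 0.27), far below Eif4ebp3.

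Eif4ebp2 measured 58.94, 63.84 and 60.58 FPKM in the ANIT group against 38.94, 40.90 and 43.31 under celastrol, well apart. Its log2 fold change was -0.56 (SE 0.11; adjusted p by limma = 0.011), and dropping ANIT library 2 or celastrol library 1 ended the call (adjusted p = 0.057 for each). Eif4ebp1, the best-studied target of mTORC1 in this family, measured 45.54, 44.41 and 60.70 FPKM in the ANIT group against 39.92, 47.17 and 40.53 under celastrol, overlapping (log2 fold change -0.22, limma adjusted p = 0.31, 95% interval from -0.58 to 0.13). As shares of the summed FPKM of the 3 genes, Eif4ebp3 made up 40.6%, 20.8% and 25.3% with ANIT and 55.1%, 57.2% and 64.2% with celastrol. The Eif4ebp2 share was 39.2 ± 6.79% and 20.2 ± 1.86%, and the Eif4ebp1 share was 31.9 ± 5.76% and 21.0 ± 3.19% (SD, n = 3 each, ANIT and celastrol), without overlap for either. Eif4ebp3 was the most abundant of the 3 transcripts in every celastrol library and in ANIT replicate 1, whereas Eif4ebp2 led in ANIT replicate 2 and Eif4ebp1 narrowly in ANIT replicate 3. The 3 genes together exceeded Eif4e by a factor of 13.6, 11.5 and 14.5 with ANIT and 18.5, 23.1 and 24.6 with celastrol, without overlap. The coding sequences of the 3 genes are 68.6% to 70.4% identical, with no shared run over 14 bases.

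**Figure D4:**
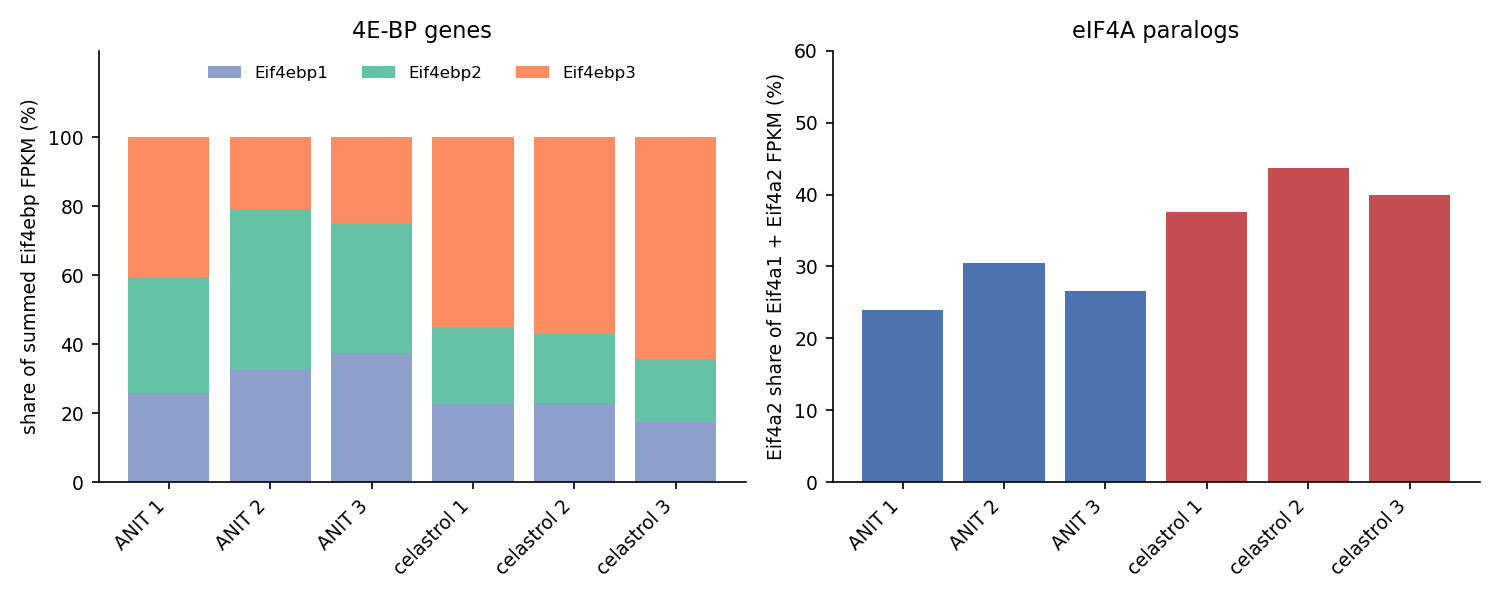
Left, share of each 4E-binding protein gene in the summed FPKM of the 3 genes, by library; right, share of Eif4a2 in the summed FPKM of Eif4a1 and Eif4a2, by library. Eif4ebp3 takes 55.1% to 64.2% in the celastrol libraries against 20.8% to 40.6% with ANIT, and Eif4a2 takes 37.6% to 43.7% against 23.9% to 30.5%.

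The remaining tested members of the Eif4 group did not pass. Eif4b, which stimulates the helicase, measured 60.25, 62.54 and 54.18 FPKM in the ANIT group against 50.97, 70.51 and 56.39 under celastrol (95% interval of the log2 fold change from -0.35 to 0.35). Eif4h, a related helicase cofactor, Eif4g2, a scaffold without a cap-binding contact, and Eif4e2, a cap-binding relative, had log2 fold changes of -0.24, -0.33 and -0.38. Eif4e3, a minor cap-binding relative, was barely detected, at 0.49, 1.17 and 1.62 FPKM in the ANIT group against 1.44, 1.87 and 2.19 under celastrol, overlapping (limma adjusted p = 0.15). Eif4e1b, an oocyte-enriched relative, lay between 0.11 and 0.17 FPKM in all 6 libraries.

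Among the factors of subunit joining and elongation, 1 of 3 tested members of the Eif5 group was lower and none higher. Eif5a (chromosome 11, positions 69916714 to 69921958), the hypusine-bearing factor that helps ribosomes past stalling sequences, had the highest level of any member, at 294.90, 270.61 and 282.60 FPKM with ANIT. With celastrol it measured 171.16, 210.46 and 171.72 FPKM, all below ANIT, with a log2 fold change of -0.62 (SE 0.14; adjusted p by limma = 0.018). The call was lost on dropping any ANIT library, or celastrol library 1 (adjusted p from 0.057 to 0.081). Its relative Eif5a2 was at most 0.09 FPKM. Eif5, which triggers GTP hydrolysis by eIF2, and Eif5b, which joins the ribosomal subunits, had log2 fold changes of -0.29 and -0.23 and did not pass (limma adjusted p of 0.17 and 0.10), and the groups of neither overlapped as deposited. After median-ratio scaling both stood nearer 0 (-0.11 and -0.07) and their groups overlapped.

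Eif6 (chromosome 2, positions 155819832 to 155826925), which holds the large ribosomal subunit apart from the small subunit until it is released, had the second lowest log2 fold change of the family. It measured 66.68, 48.96 and 61.94 FPKM in the ANIT group against 33.15, 28.58 and 28.08 under celastrol, so the celastrol mean was 50.6% of the ANIT mean. The log2 fold change was -0.95 (SE 0.15, adjusted p by limma = 0.0052), and -0.78 after median-ratio scaling (adjusted p = 0.019). With that scaling the call was lost on dropping ANIT library 1 or 3 or celastrol library 3. The lowest ANIT library lay above the highest celastrol library by more than the range within the celastrol group and less than the range within ANIT.

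Summed over their members, the complexes differed in level far more than in how they changed. With ANIT the sums were 660.6 ± 18.2 FPKM for eIF3, 724.8 ± 37.3 for the Eif4 group, 358.9 ± 8.01 for the Eif5 group, 301.8 ± 11.4 for the Eif1 group, 136.6 ± 7.45 for the Eif2 group, 70.3 ± 5.96 for eIF2B and 26.0 ± 1.66 for the kinases (SD, n = 3). The celastrol mean was 68.8% of the ANIT mean for the Eif5 group, 72.2% for the Eif2 group, 73.9% for eIF2B, 78.2% for the Eif1 group and 79.4% for eIF3, and in each the groups did not overlap. For the kinases and the Eif4 group it was 93.3% and 94.6%, with overlap. The Eif4 sum includes Eif4ebp3, the only Eif4 member called higher, with means of 46.96 FPKM under ANIT and 121.4 FPKM under celastrol. Single lower genes also weigh strongly in other sums. In the Eif5 sum, Eif5a had means of 282.7 FPKM under ANIT and 184.4 FPKM under celastrol. In the same order Eif2d had 29.26 and 12.22 FPKM in the Eif2 sum, and Eif2b4 had 26.04 and 14.8 FPKM in the eIF2B sum. Sums without these genes were not computed. Of the 15 tested Eif4 members 5 were called lower, against 20.6% of all tested genes. The median log2 fold change was -0.33 for the Eif4 group, -0.33 for eIF3, -0.39 for the Eif2 group, -0.34 for the Eif1 group, -0.30 for eIF2B, -0.29 for the Eif5 group and -0.20 for the kinases. The median of the kinases was 0.01 after quantile normalization.

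**Figure D5:**
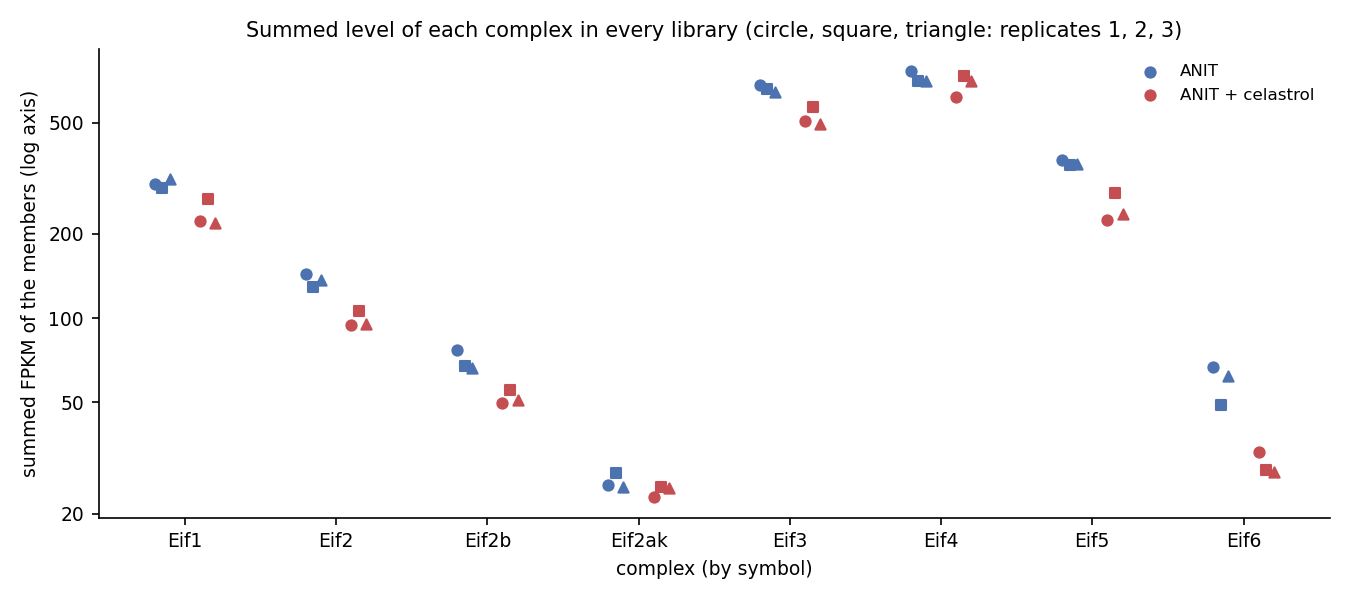
Summed FPKM of the members of each complex (log axis) in each library, ANIT in blue and ANIT plus celastrol in red, with a different marker for each replicate number. The groups do not overlap for Eif1, Eif2, Eif2b, Eif3, Eif5 and Eif6, and they overlap for Eif2ak and Eif4.

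Other genes of translation were listed from textbook knowledge, and their counts are read beside the 20.6% of all tested genes called lower and the 4.41% called higher. Of 12 tested elongation factors 4 were lower and none higher (median log2 fold change -0.30), and Eefsec, the selenocysteine elongation factor, had -0.53 (limma adjusted p = 0.0057) and Gfm1, a mitochondrial elongation factor, -0.50 (adjusted p = 0.027 by limma). Of 7 termination and recycling factors 3 were lower and none higher (median -0.31). Abce1, which splits ribosomes after termination, went from 24.6 ± 1.38 to 16.0 ± 0.179 FPKM (SD, n = 3 each, log2 fold change -0.59, limma adjusted p = 0.0061), and Etf1, the release factor, had -0.42 (adjusted p = 0.023). Of 8 poly(A)-binding proteins and partners 2 were lower and none higher (median -0.36), namely Pabpc4 and Larp4 (-0.49 and -0.51, limma adjusted p of 0.022 and 0.030). Of 12 alternative initiation factors and helicases 3 were lower and 1 higher (median -0.26), and Metap1, which removes the first methionine, had -0.48 (limma adjusted p = 0.016). The higher gene is Pdcd4, which is also in the mTORC1 list described next. These 4 medians lie below the -0.17 of all tested genes. After median-ratio scaling 1, 1, 0 and 0 genes of the 4 lists were lower, against 11.0% of all tested genes. Eefsec and Abce1 kept their calls (limma adjusted p of 0.024 and 0.020), and Gfm1, Etf1, Pabpc4, Larp4 and Metap1 lost theirs (0.12, 0.081, 0.082, 0.076 and 0.053).

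Among 18 tested genes that link mTORC1 to initiation, 6 were lower and 1 higher (median -0.29), against 20.6% and 4.41% of all tested genes. The lower count was 4 after median-ratio scaling and 2 after quantile normalization, against 11.0% and 8.99% of all tested genes. Mtor, the kinase itself, measured 7.70, 7.72 and 6.39 FPKM in the ANIT group against 3.55, 4.0 and 3.46 under celastrol, well apart (log2 difference -0.82, SE 0.11; adjusted p by limma = 0.0025). Pdcd4, an inhibitor of the eIF4A helicase, measured 19.89, 21.93 and 18.39 FPKM in the ANIT group against 34.56, 34.32 and 31.53 under celastrol, all above ANIT (log2 difference 0.71, SE 0.11; adjusted p by limma = 0.0051). The others lower were Rptor, Tsc2, Rheb, Mknk2 and Rragc. Rheb activates mTORC1, and Tsc2 restrains it. After median-ratio scaling Tsc2 and Rptor lost their calls (limma adjusted p of 0.14 and 0.085), and Mtor, Rheb, Mknk2 and Rragc kept theirs.

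Of 10 tested partners of the eIF2 kinases and phosphatases 1 was lower, Impact, an inhibitor of GCN2 (log2 fold change -0.51, limma adjusted p = 0.017), and none higher, a share below the 20.6% of all tested genes. That call was lost after median-ratio scaling (-0.35, limma adjusted p = 0.11). Dnajc3, an inhibitor of PKR and PERK, did not pass (-0.38, limma adjusted p = 0.071). Of 13 tested targets of the integrated stress response, a list that also holds the member Eif4ebp1, 3 were lower (Trib3, Atf3 and Psat1) and 1 higher. Psat1, a serine synthesis enzyme, went from 6.22 ± 1.53 to 0.420 ± 0.0964 FPKM (SD, n = 3 each, log2 fold change -2.33, limma adjusted p = 0.00028). Chac1, which degrades glutathione, went from 2.02 ± 0.338 to 5.92 ± 0.630 FPKM (log2 fold change 1.20, limma adjusted p = 0.0011). Atf4, whose mRNA is translated when eIF2 is phosphorylated, measured 73.44, 73.46 and 70.79 FPKM in the ANIT group against 60.85, 61.48 and 51.86 under celastrol and missed the threshold (adjusted p by limma = 0.089). Translation itself, protein levels and phosphorylation were not measured.

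Markers of other liver cells were read beside these results. The summed FPKM of 8 neutrophil markers was 27.8 to 52.3 with ANIT and 64.0 to 88.3 with celastrol, and 3 of the 4 tested were higher (S100a8, S100a9 and Ly6g). The other 4 were too low to be tested and had higher means with celastrol: Mpo went from 0.04 to 1.28 FPKM, Elane from 0.06 to 1.09, Camp from 0.09 to 1.0 and Ltf from 0.0567 to 0.553. The sums of 8 markers each overlapped between groups for Kupffer cells (85.7 to 212.6 and 151.4 to 222.6 FPKM), sinusoidal endothelium (33.9 to 56.3 and 46.6 to 87.2 FPKM, with Stab2 higher), stellate cells (20.1 to 37.5 and 15.3 to 52.8 FPKM) and cholangiocytes (44.1 to 51.4 and 21.5 to 50.5 FPKM, with Krt19 lower and Cftr at 0 with celastrol). Lymphocyte markers summed to 4.37 FPKM or less. The erythroid sum was 132.2 to 232.0 FPKM with ANIT and 31.7 to 131.5 FPKM with celastrol, with only the tested Klf1 called, as higher. The cycling-cell sums overlapped (17.8 to 19.8 and 13.8 to 20.6 FPKM). Of 8 hepatocyte markers Alb was lower and Serpina1c higher. The part of these cells in the family's differences was not tested.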

How the data were processed

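Mouse liver RNA was sequenced as 3 ANIT and 3 ANIT plus celastrol libraries, grouped and numbered by title. The deposited values are FPKM, 1 table per library, per the file headers. HISAT2, featureCounts and mm10 are named in the submitters' processing notes, without versions. Gene lengths, annotation and strand setting are not given in these sources, which leaves near copies and antisense genes uncertain. The 2 date-like symbols repeated within a table were left out, and an unlisted symbol counted as 0. Genes reaching 1 FPKM in 3 or more libraries entered limma 3.58.1 (R 4.3.3) on log2(FPKM + 1), with trended robust variance, no term besides group, and p adjusted by Benjamini-Hochberg over all tested genes. This scale understates changes of low genes. The fit was tested on simulated data. Positions and coding identity come from GENCODE M21 (mm10), and start windows from RefSeq GRCm38.p6. Depth was estimated from genes of 400 to 2500 bases at 0.1 to 1 FPKM, and no count model was run. Alternatives were other scalings, pseudocount 0.1, other filters, non-robust variance, a replicate block and each library left out. Members, lists and tests were chosen with earlier results of these data known. Named are all called members, the highest and lowest of each complex, fixed key factors and the 2 smallest p of each pathway list; other genes were named after their values were seen.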

Additional observations from a re-analysis of the deposited data

How the results depend on the processing

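Both the scaling of the libraries and leaving out 1 library moved the results. The median log2 fold change of all members was -0.15 after median-ratio scaling, -0.05 after quantile normalization and -0.45 in TPM. In the same order it was -0.16, -0.09 and -0.47 for the Eif1 group, -0.22, -0.1 and -0.52 for Eif2, -0.13, -0.05 and -0.43 for eIF2B, -0.04, 0.01 and -0.33 for the kinases, -0.15, -0.02 and -0.46 for eIF3 and -0.15, -0.06 and -0.46 for Eif4. For the Eif5 group it was -0.11 and -0.03 under the first 2, for Eif6 -0.66 after quantile normalization, and for Eif4 -0.28 without a filter. Celastrol sums as a percent of ANIT after median-ratio scaling were 88.3 (Eif1), 81.8 (Eif2), 83.7 (eIF2B), 106 (kinases), 89.9 (eIF3), 107 (Eif4) and 77.7 (Eif5); in TPM they were 66.2 (Eif2), 85.4 (kinases), 72.7 (eIF3) and 86.7 (Eif4). Lower members numbered 10, 5 and 33 under median-ratio, quantile and TPM, and 1 member was higher in TPM, without a filter and with a mean of at least 5 FPKM (2.26% and 5.01% of all genes for the filters). In TPM 4202 genes passed in all.

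Lower genes under median-ratio scaling and quantile normalization numbered 1 and 1 for elongation, 1 and 0 for termination, 0 and 0 for poly(A)-binding proteins, eIF2 phosphatase partners and alternative initiation, and 2 after quantile normalization for mTORC1. In TPM they numbered 8 for elongation, 5 for poly(A)-binding proteins, 5 for eIF2 partners, 6 for stress targets and 7 for alternative initiation. Of all tested genes 36.0% were lower in TPM, 11.0% after median-ratio scaling and 8.99% after quantile normalization. Without a filter, 2 elongation factors and 1 poly(A)-binding protein were lower, against 9.18% of all genes. With a mean of at least 5 FPKM 0 stress targets were higher, against 5.01%.

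Members below 0 as deposited were above 0 after median-ratio scaling for Eif1b (0.06), Eif2a (0.03), Eif2ak1 (0.09), Eif2b1 (0.16), Eif2b2 (0.02), Eif3e (0.04), Eif3h (0.02) and Eif4b (0.17). After quantile normalization the same held for Eif1b (0.14), Eif2a (0.11), Eif2ak1 (0.16), Eif2b1 (0.23), Eif2b2 (0.09), Eif3e (0.15), Eif3f (0.09), Eif3g (0.02), Eif3h (0.09), Eif3k (0.07), Eif4a3 (0.09), Eif4b (0.27), Eif4ebp1 (0.07) and Eif4h (0.05). Eif2s3y was at -0.1 in TPM. None of these was called. On leaving out 1 library, Eif2b1 reached 0.02 and 0.06, Eif2s3y ranged from -0.21 to 0.19 (-0.03 without celastrol replicate 2), and Eif4b reached 0.01, 0.03, 0.04 and 0.1. The cause of these shifts was not tested.

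Leaving out 1 library at a time, 1127 to 3841 genes passed, and 6 to 31 members were lower and 0 to 2 higher. With median-ratio scaling as well, an alternative chosen after seeing the data, 3 to 7 members were lower and 1 to 2 higher. Without ANIT replicates 1, 2 and 3 and celastrol replicates 1, 2 and 3 in turn, 3, 5, 3, 4, 7 and 6 were lower, against 7.07%, 5.42%, 6.64%, 4.95%, 10.9% and 7.63% of all tested genes. Eif2b4, Eif2d and Eif3j1 kept their calls in each of these fits. Eif6 lost its call without ANIT replicate 1 or 3 or celastrol replicate 3. The Eif4 median ranged from -0.34 to -0.28. Lower counts ranged from 0 to 3 for alternative initiation and for eIF2 partners, 1 to 6 for elongation, 3 to 5 for stress targets, 3 to 7 for mTORC1, 0 to 4 for poly(A)-binding proteins and 1 to 5 for termination. These ranges are for the values as deposited, where 8.58% to 31.4% of all tested genes were lower.

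With the replicate block 2585 genes passed, 13 members were lower and 3 higher (19.9% and 4.52% of all tested genes), and 1 elongation factor was lower. Same-numbered libraries had correlations of 0.149, 0.231 and -0.0917 in their deviations from the group means. Celastrol replicates 1 and 2 correlated best with the ANIT replicate of the same number, and celastrol replicate 3 with ANIT replicate 1 (0.18). With 3 libraries a group these values cannot decide whether same-numbered libraries were paired. Under the block Eif2ak4, Eif2b3, Eif3a, Eif4a1 and Eif4e were not called (limma adjusted p from 0.051 to 0.079), and Eif4e3 was called (0.049). Pseudocount 0.1 and non-robust variance kept all 20 calls. Depth limits Eif3j2, Eif4e1b and Eif5a2, which were not tested.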

Other observations

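The spread of the members between libraries of a group is given as the coefficient of variation. The coefficient of variation (SD as a percent of the mean, n = 3) of the 52 tested members had a median of 6.35% with ANIT and 9.39% with celastrol. Over all tested genes, which were not matched for level, the medians were 10.5% and 13.4%. The highest values of members were 52% for Eif4e3, 46.9% for Eif4ebp3 and 28.6% for Eif2s3y, all with ANIT.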
